A study of Rattus norvegicus with 6 samples.

Results

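The endoplasmic reticulum (ER) chaperones and the genes of the integrated stress response were read on 6 arrays of a β-cell line. They comprise 36 genes, chosen by symbol from an array on which 14217 symbols have a probe set of their own: 23 chaperones, foldases and genes of ER-associated degradation (ERAD), 3 genes of the IRE1 and ATF6 arms, and 10 genes of the PERK-ATF4 arm. Of the 36 genes, 35 had at least 1 probe set annotated to that symbol alone, and Ern1, which encodes IRE1α, had none. In all they had 48 of the 31042 probe sets tested, namely 32 for the chaperones, 3 for the IRE1 and ATF6 arms and 13 for the PERK-ATF4 arm. The 832/13 INS-1 cells, a clonal rat insulinoma line, were grown in medium with 11 mM glucose and electroporated with COUP-TFII siRNA (3 arrays) or with scrambled siRNA as control (3 arrays), and both groups were cultured for 48 h. The siRNA lowers COUP-TFII, a nuclear receptor encoded by Nr2f2, without deleting its gene. The labels number the arrays of each group as biological replicates 1, 2 and 3, but do not say whether arrays with the same number were prepared together.

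The ER of a β-cell folds proinsulin, the main product of the cell. When unfolded protein builds up there, 3 sensors in the ER membrane respond, and the response is known as the unfolded protein response. ATF6 and IRE1, the latter through splicing of Xbp1 mRNA, raise the transcription of chaperones and of ERAD genes, which clear misfolded protein. The third sensor, PERK, phosphorylates the translation factor eIF2α, which slows protein synthesis while favouring the translation of ATF4, a transcription factor for amino acid supply and stress genes. Other eIF2α kinases that sense amino acid shortage, viral RNA or lack of haem feed into the same pathway, hence the name integrated stress response.

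Many chaperone genes carry short promoter motifs that these factors read. The ER stress response element (ERSE) is CCAAT, then 9 bases of any kind, then CCACG, and the related ERSE-II is ATTGG, then 1 base of any kind, then CCACG. ATF4 reads the C/EBP-ATF response element (CARE), searched here as TGATGNAA, and the unfolded protein response element (UPRE) was searched as TGACGTGG. All 4 were searched on both strands of RefSeq windows of the assembly GRCr8 that run from 250 bases before to 50 bases after each gene's start. Of the 36 members 29 had such a window, 30 windows in all. Pdia3, Pdia6, Manf, Ero1a, Atf6, Ern1 and Atf3 had none in the table. ERSE stood in 7 of 20 chaperone windows (35%) and in 22 of all 33469 windows (0.0657%). The 7 genes were Hspa5, Hsp90b1, Creld2, Canx, Dnajc3, Ero1b and Calr, and outside the chaperones Xbp1 had a match as well. ERSE-II stood in 3 of 20 chaperone windows (15%), those of Hyou1, Dnajb11 and Herpud1, and in 17 of all windows (0.0508%). None of the 9 windows of the PERK-ATF4 arm held either motif. There, CARE matched for Chac1 and Trib3, 2 of 9 windows, and among the chaperones for Herpud1, against 3.98% of all windows. The UPRE letters matched among members for Hyou1 alone, against 0.595% of all windows, and that match overlaps the distal ERSE-II match. The stretches below show the motif in genes whose signals are described further on, and 1 gene with CARE for contrast. They are written 5′ to 3′ on the strand of the gene. Capitals mark the fixed letters of ERSE, ERSE-II or CARE. A match on the opposite strand appears as its reverse complement, so that ERSE then begins with CGTGG and ends with ATTGG.
Hspa5, chr3:38452953-38453011, forward strand, 63 to 5 bases upstream of the start: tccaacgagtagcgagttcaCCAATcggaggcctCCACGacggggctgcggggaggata
Hsp90b1, chr7:23012327-23012489, reverse strand, 196 to 34 bases upstream of the start: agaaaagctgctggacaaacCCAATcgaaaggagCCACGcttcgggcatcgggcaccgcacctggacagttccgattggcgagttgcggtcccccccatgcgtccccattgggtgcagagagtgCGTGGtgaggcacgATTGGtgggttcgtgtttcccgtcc
Creld2, chr7:121789219-121789277, forward strand, 165 to 107 bases upstream of the start: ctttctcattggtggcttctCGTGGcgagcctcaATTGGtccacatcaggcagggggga
Ero1b, chr17:92941438-92941496, forward strand, 244 to 186 bases upstream of the start: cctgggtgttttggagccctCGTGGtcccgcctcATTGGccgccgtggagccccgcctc
Xbp1, chr14:84604538-84604596, forward strand, 85 to 27 bases upstream of the start: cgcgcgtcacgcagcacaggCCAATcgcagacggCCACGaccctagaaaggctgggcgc
Hyou1, chr8:53602674-53602824, forward strand, 208 to 58 bases upstream of the start: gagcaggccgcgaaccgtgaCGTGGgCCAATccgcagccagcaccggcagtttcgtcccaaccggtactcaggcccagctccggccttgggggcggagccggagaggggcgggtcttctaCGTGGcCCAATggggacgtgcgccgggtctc
Herpud1, chr19:10614801-10614911, reverse strand, 204 to 94 bases upstream of the start: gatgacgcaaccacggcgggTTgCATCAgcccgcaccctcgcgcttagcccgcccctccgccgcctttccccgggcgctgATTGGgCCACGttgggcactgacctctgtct
Chac1, chr3:126795944-126795991, forward strand, 187 to 140 bases upstream of the start: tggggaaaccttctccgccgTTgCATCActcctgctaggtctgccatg
A match is a description of these letters in these windows. Whether the factors bind there in 832/13 INS-1 cells was not measured.

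**Figure D1:**
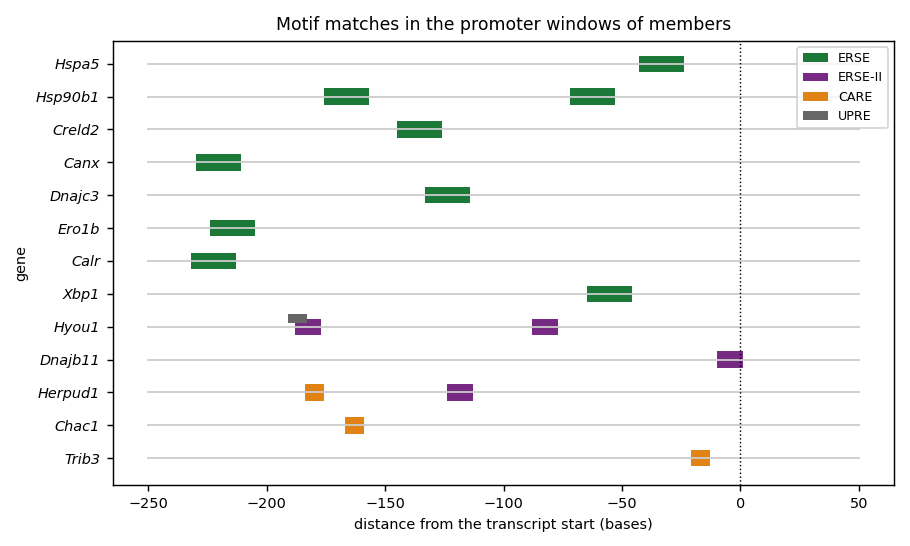
Positions of the motif matches in the promoter windows of members (x axis, bases from the transcript start, negative upstream). Grey lines are the windows from 250 bases before to 50 bases after the start, and coloured bars are matches to ERSE, ERSE-II, CARE and UPRE. Of the genes drawn, 11 have ERSE or ERSE-II, and Hsp90b1 and Hyou1 have more than 1 such match.

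Each transcript was read by a probe set, that is, several short probes whose brightness the authors condensed with MAS5 into a single signal without unit. An array is named below by its group and replicate number, for example control array 3 or depleted array 1. The total signal of an array ran from 7034875 to 7598914. The control probe sets for Bacillus transcripts, absent from rat RNA, reached at most 20.7, and a probe set is called dim where neither group mean exceeded that signal. By the brightest probe set of each gene all 35 members lay above it. Of the 48 probe sets 46 did, and the dim ones were Hyou1 1370665_at and Ero1b 1377470_at. The brightest probe set of a gene is used below unless another is named. The siRNA target was read as lower by 1389554_at of Nr2f2, with signals of 47, 27.7 and 23.8 in COUP-TFII depleted cells and 182, 235 and 179 in control cells. β-cell transcripts were present, with 8 of 11 listed marker genes measured and a summed signal from 39167 to 43655 in COUP-TFII depleted cells and from 29913 to 40807 in control cells. Markers of δ-cells, duct and endothelium lay below the Bacillus signal on all arrays, those of acinar cells reached 66.6, of fibroblasts 65.6 and of immune cells 35.7. Of the α-cell markers, the glucagon gene Gcg was bright and reached 8056, while Irx2 reached 14.8.

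By the brightest probe set of each gene, the signals of most ER chaperones were lowest in replicate 3. In both groups replicate 3 read lowest for 18 of the 23 chaperone genes (78.3%), against 11.8% of all probe sets and 31.6% of the 2927 probe sets with a mean log2 signal of 9 or more, a level that 14 of the 23 chaperone genes reached. It was lowest for 21 of the 23 in COUP-TFII depleted cells and for 19 in control cells. Over all 31042 probe sets these counts were 8426 and 8078, and over the 2927 brighter ones 1427 and 1247. The median difference of replicate 3 from the mean of replicates 1 and 2 was -0.84 on the log2 scale in COUP-TFII depleted cells and -0.46 in control cells, against 0.13 in both groups over all probe sets and -0.10 and -0.066 over the brighter ones. The share depends on the probe set read. Over all chaperone probe sets it was 20 of 32 (62.5%), and among the 9 that are not the brightest of their gene 2 were lowest there, both of Edem1, while those of Canx, Pdia3, Ssr1, Hyou1, Ero1a and Ero1b were not. The choice to set replicate 3 against the others was made after the values were seen, so no test is given. The pattern was read from the deposited signals without further normalization. It was not recomputed after quantile normalization or median centring. Neither the labels nor the methods say what set these cultures apart. Since the arrays read bulk RNA, fewer cells with high chaperone levels cannot be told apart from lower levels in every cell.

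Sdf2l1, a partner of the ER Hsp70 system, showed the widest range of all members in COUP-TFII depleted cells, by the brightest probe sets. Its signals for replicates 1, 2 and 3 were 782, 764 and 187 in COUP-TFII depleted cells and 557, 683 and 219 in control cells. The highest array thus read 4.17 times the lowest in the former and 3.11 times in the latter. Manf, a secreted ER-resident survival factor, read 1234, 1534 and 486 in COUP-TFII depleted cells and 887, 1333 and 522 in control cells. In both genes replicate 3 stood well below the others whichever siRNA the cells received. The cochaperone Dnajc3 read 385, 383 and 163 against 335, 341 and 167 in control cells, and Dnajb11 read 1053, 1152 and 502 against 999, 970.2 and 508. Dnajb11 and Dnajc3 are J-domain proteins, which stimulate the ATPase of the Hsp70 chaperone. Calr, the lectin chaperone calreticulin, read 1740, 1834 and 958 against 1700, 1652 and 853. Its membrane-bound relative Canx differed less, with 2074, 2057 and 1307 against 1746, 1658 and 1338. The other probe sets of Canx did not show this order, as 1388442_at read 1936, 1542 and 1626 against 1779, 1522 and 1284, and 1371687_at read 837, 486 and 634 against 702, 535 and 535. Herpud1, which helps to assemble the ERAD ligase complex, had a highest array 2.57 times the lowest in depleted and 1.93 times in control cells, and replicate 3 was the lowest in both. By the brightest probe sets the low replicate 3 was thus seen in soluble chaperones, in calreticulin and in an ERAD component. In the siRNA comparison the log2 fold changes of these genes were 0.14 for Sdf2l1, 0.19 for Manf, 0.11 for Dnajc3, 0.10 for Dnajb11, 0.12 for Calr, 0.18 for Canx and -0.13 for Herpud1. Dnajb9, another J-domain protein, read 478, 339 and 225 against 331, 299.7 and 243, with a log2 fold change of 0.20, and its replicates 1 and 2 differed more in depleted than in control cells.

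The 5 chaperone genes for which replicate 3 was not the lowest in both groups were Hsp90b1, Hyou1, Syvn1, Ero1a and Ero1b. Ero1b, an oxidase that passes oxidising equivalents to protein disulfide isomerases and is abundant in the pancreas, went the other way. It read 229, 195 and 562 in COUP-TFII depleted cells and 197, 158 and 496 in control cells. Replicate 3 thus lay above replicates 1 and 2 by 1.41 and 1.49 on the log2 scale. Its paralog Ero1a read 216, 184 and 130.2 against 192, 236 and 203. Hsp90b1, the ER Hsp90 chaperone GRP94, read 5026, 3260 and 3139 against 4519, 2856 and 2966, so that there replicate 1 was the high one in both groups.

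Genes with ERSE or ERSE-II in the window were lowest in replicate 3 of both groups in 7 of 10 cases, and chaperone genes with a window but neither motif in 8 of 9. The median drop was -1.01 and -0.74 in COUP-TFII depleted and control cells for the former, and -0.70 and -0.41 for the latter. These counts describe few genes and were not tested. Ero1b, which has ERSE, was the highest there.

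**Figure D2:**
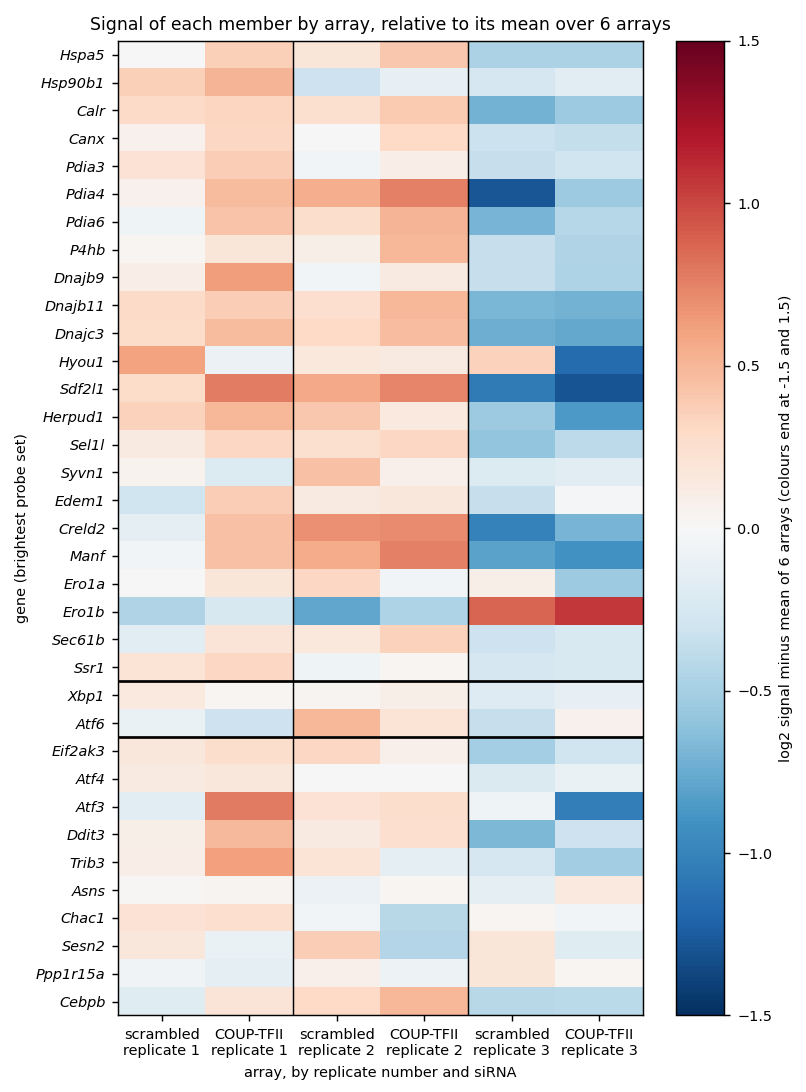
Signal of each of 35 members on each array as log2 difference from its mean over the 6 arrays (colour, log2 scale), with arrays in columns by replicate number and siRNA and genes in rows. Horizontal lines part the chaperones, the IRE1 and ATF6 arms, and the PERK-ATF4 arm. Both replicate 3 columns are blue for most chaperones, and Ero1b is red there.

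Other genes were counted in the same way, and the counts below were not tested against that of the chaperones. In the PERK-ATF4 arm replicate 3 was lowest in both groups for 5 of 10 genes, Eif2ak3, Atf4, Ddit3, Trib3 and Cebpb. The median difference of replicate 3 was -0.33 in COUP-TFII depleted cells and -0.20 in control cells. Xbp1 was lowest in replicate 3 too, but its range was narrow, with the highest array 1.16 and 1.26 times the lowest. Among the related lists, replicate 3 was lowest in both groups for 19 of 33 other ER folding genes (57.6%), 10 of 21 other ERAD genes (47.6%), and 15 of 30 genes of the translocon and of glycosylation (50%), which bring proteins into the ER and attach sugars. The count was 15 of 45 for other ATF4 targets (33.3%), 4 of 17 for eIF2 kinases and regulators, 2 of 12 for other sensors and factors of the unfolded protein response, 2 of 9 for genes of ER stress apoptosis, a list that also holds the member Ero1a, and 2 of 23 for cytosolic heat shock genes (8.7%). The heat shock genes encode the chaperones of the cytosol, and their median differences of replicate 3 were -0.073 and 0.047.

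Some other measures moved with the replicate number. Gcg, the glucagon gene, read 8056, 4789 and 817 in COUP-TFII depleted cells and 6313, 3397 and 394 in control cells, whereas Irx2, another listed α-cell gene, read at most 14.8. Ins2, for insulin, read 5713, 4415 and 8198 against 5539, 3230 and 7535, and Slc2a2, for the glucose transporter GLUT2, 5165, 5177 and 6780 against 4889, 3886 and 6030. Gcg was thus lowest in replicate 3 of both groups. Of the 8 measured β-cell markers Ins2 and Slc2a2 alone were highest there in both groups, and 0 were lowest in both. Ins1, for instance, read 15306, 14386 and 13966 against 15843, 9490 and 13544. The share of probe sets at or below the Bacillus signal was lowest in replicate 3 of either group, at 37.3% and 36.2%, and ran up to 43.7% on the other arrays. The part of these differences in the chaperone pattern was not tested.

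Between the siRNA groups the differences of chaperone genes were small beside that spread. By mean the depleted cells read higher for 19 of 23 chaperone genes and lower for 4 (Hyou1, Herpud1, Syvn1 and Ero1a), with a median log2 fold change of 0.15. The share higher was 82.6%, against 49.6% of all probe sets and 62.2% of those with a mean log2 signal of 9 or more, whose medians were -0.0031 and 0.04. It was as high, at 83.3%, for the list of the translocon and of glycosylation. For 21 of the 23 genes the change was smaller than the spread within the groups (SD of log2 signals, median 0.43), and the exceptions were Hyou1 and Edem1. The same held for most probe sets, 24356 of all 31042 and 2397 of the 2927 brighter ones, so it is not particular to chaperones. The median difference of arrays with the same number was 0.20 for replicate 1, 0.17 for replicate 2 and 0.033 for replicate 3. The chaperone median turned negative without control array 3 (-0.072) and without depleted array 1 (-0.014), and it was 0.029 without depleted array 2, 0.25 without either other control array, and 0.42 without depleted array 3. With both arrays of a number left out it stayed positive, at 0.11 without those numbered 1, 0.12 without those numbered 2 and 0.26 without those numbered 3. Gcg was also higher in the depleted array of each pair, with a log2 fold change of 0.63 (adjusted p = 1 by limma, and 0.566 with the block), and its part in the chaperone difference was not tested.

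In the unpaired limma fit no member reached the adjusted threshold of 0.05 (0 of 48 probe sets, adjusted p = 1 for each), nor did any other probe set (0% of all). Even 1389554_at of the siRNA target Nr2f2 missed it (adjusted p = 0.404 by unpaired limma), so the lack of calls carries little weight. At an unadjusted p up to 0.05 that fit gave 1 lower member, Sesn2, against 1.34% of all probe sets, and 0 higher members, against 0.973% of all. Deviations from the group means correlated weakly between same-numbered arrays (0.111, 0.231 and 0.163), so limma was also run with the replicate number as a block. The labels do not state this pairing, and it was taken from these same data. With the block 0 members passed the adjusted threshold, against 0.0161% of all probe sets, by limma with Benjamini-Hochberg adjustment. The probe set 1389554_at of Nr2f2 passed it there (adjusted p = 0.0185 by limma with the block). At an unadjusted p up to 0.05 the block gave 6 higher members among 48 probe sets, Pdia4, Pdia6, Edem1, Creld2, Ero1b and Ddit3, against 2.72% of all probe sets and 5.06% of those with a mean log2 signal of 9 or more. It gave 1 lower, Sesn2, against 3.51% of all. Of the 32 chaperone probe sets 14 read higher in the depleted array of each of the 3 same-numbered pairs, against 13.4% of all probe sets and 23.5% of the brighter ones, and 1 was lower in 3 of 3, against 14% of all. The groups were separate, with no overlap, for 3 of the 48 probe sets, against 6.69% of all. The replicate block narrowed the standard error of most members, as the plot of fold changes shows.

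**Figure D3:**
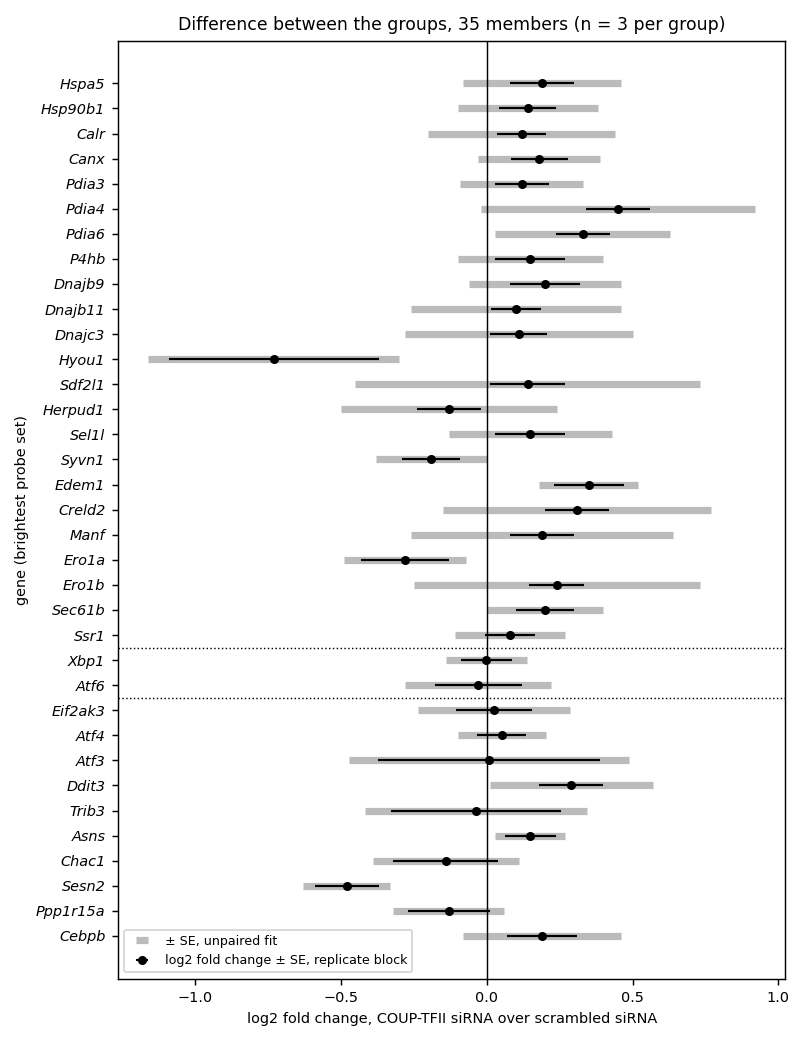
log2 fold change of COUP-TFII siRNA over scrambled siRNA (x axis) for the brightest probe set of 35 members (y axis, n = 3 per group). Grey bars are ± 1 standard error of the unpaired limma fit, black bars ± 1 standard error with the replicate number as a block, and dotted lines part the blocks of genes. Most chaperone points lie right of 0, Hyou1 and Sesn2 lie furthest left, and the grey bars of most genes cross or reach 0.

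Hspa5, the Hsp70 chaperone BiP that also keeps the sensors inactive, read 5882, 6109 and 3312 in COUP-TFII depleted cells and 4630, 5229 and 3308 in control cells. The groups overlapped, and replicate 3 was the same in both to within 0.0018 on the log2 scale. Its mean was 5101 ± 1554 (SD, n = 3 per group) in depleted and 4389 ± 983 in control cells, and the log2 fold change was 0.19 with a standard error of 0.27 (0.11 with the block, adjusted p = 0.811). Without depleted array 3 the log2 fold change was 0.48, without control array 3 it was -0.00039, and after quantile normalization of all arrays it was 0.069.

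Pdia4 and Pdia6, foldases that form and exchange disulfide bonds in the ER, had the lowest p values among the chaperone genes when the replicate number was a block, whereas the foldases Pdia3 and P4hb did not reach an unadjusted p of 0.05. Pdia4 read 773, 940.3 and 382 in COUP-TFII depleted cells and 581, 810.3 and 229.7 in control cells. The groups overlapped widely, but each COUP-TFII depleted array lay above the control array of the same number. The mean was 699 ± 286 (SD, n = 3 per group) in depleted and 540.3 ± 292 in control cells, and the log2 fold change was 0.45 with a standard error of 0.47, and of 0.11 with the block (adjusted p = 0.678). It was 0.84 without depleted array 3 or without control array 2, 0.19 without depleted array 2 and -0.072 without control array 3. Pdia6 read 2661, 2814 and 1471 against 1892, 2389 and 1227. Again the groups overlapped and all 3 pairs were higher, by 0.49, 0.24 and 0.26 on the log2 scale. The log2 fold change of Pdia6 was 0.33 (standard error 0.30 unpaired, 0.093 with the block, adjusted p = 0.739). With 1 array left out it ran from 0.066 without control array 3 to 0.63 without depleted array 3. Pdia3, P4hb and the lectin chaperones Calr and Canx had log2 fold changes from 0.12 to 0.18.

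The oxidases that recharge the foldases lay on opposite sides. Ero1b, with the signals given above, was higher in 3 of 3 pairs by 0.22, 0.31 and 0.18, a log2 fold change of 0.24 (standard error 0.49 unpaired, 0.094 with the block, adjusted p = 0.797). It was -0.23 without depleted array 3, -0.092 without control array 2, and 0.73 without control array 3. For Ero1a the log2 fold change was -0.28 (standard error 0.21), which was -0.07 without depleted array 3 and -0.44 without depleted array 1. Ero1a was lower in replicates 2 and 3 and higher in replicate 1, and its groups overlapped.

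Creld2, an ER-resident folding factor, read 1351, 1618 and 614 in COUP-TFII depleted cells and 903, 1595 and 493 in control cells. The pairs differed by 0.58, 0.02 and 0.32 on the log2 scale, so that replicate 2 hardly differed. A log2 fold change of 0.31 resulted (standard error 0.46 unpaired, 0.11 with the block, adjusted p = 0.777). It was 0.73 without depleted array 3, 0.72 without control array 2, 0.029 without depleted array 2 and -0.12 without control array 3. Hyou1, the large ER chaperone GRP170, read 33.5, 38.8 and 16 against 53.7, 39.6 and 45, close to the Bacillus signal. All 3 COUP-TFII depleted arrays lay below all 3 control arrays (exact permutation test, two-sided p = 0.1, the smallest that 3 arrays against 3 allow), though by 38.8 against 39.6 at the nearest. Groups of 3 that do not overlap always give this p, so here and below it adds nothing to the lack of overlap. The log2 fold change of Hyou1 was -0.73 (standard error 0.43, adjusted p = 0.8 with the block) -0.34 without depleted array 3, and -0.48 with log2(signal + 16). The dim probe set 1370665_at of Hyou1 lay on the other side at 0.071.

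In ERAD the mannosidase-like lectin Edem1, which marks misfolded glycoproteins, read 968, 841 and 741 in COUP-TFII depleted cells and 607, 821 and 588 in control cells. The groups overlapped only through the control array at 821, and the pairs differed by 0.67, 0.036 and 0.34 on the log2 scale. Its mean was 850.3 ± 114 (SD, n = 3 per group) in depleted and 672 ± 129 in control cells, and the log2 fold change was 0.35 with a standard error of 0.17 (0.12 with the block, adjusted p = 0.777). It was 0.19 without both arrays numbered 1, and the other probe sets of Edem1 gave 0.30 and 0.17. Syvn1, the ubiquitin ligase HRD1, read 329.8, 401 and 337 against 395, 515 and 328. The log2 fold change of Syvn1 was -0.19 (standard error 0.19), from -0.021 without control array 2 to -0.35 without control array 3. Its partner Sel1l was at 0.15, higher in 3 of 3 pairs. The ERAD genes among the members therefore had no common direction.

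At the translocon, the channel through which proteins enter the ER, Sec61b read 3991, 4439 and 2985 against 3119, 3918 and 2828. Its log2 fold change was 0.20 (standard error 0.20 in the unpaired fit), and it was 0.084 without depleted array 2, 0.37 without depleted array 3 and 0.11 after quantile normalization. Ssr1, a subunit of the translocon-associated complex, was at 0.08. The groups of both genes overlapped, and both genes were higher in 3 of 3 pairs.

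Of the sensor arms, Xbp1 read 1510, 1570 and 1353 in COUP-TFII depleted cells and 1634, 1523 and 1292 in control cells. Its means of 1478 ± 112 (SD, n = 3) and 1483 ± 174 (SD, n = 3) gave a log2 fold change of -0.00091 (standard error 0.14), which ran from -0.097 without control array 3 to 0.072 without control array 1. The signal reads total Xbp1 mRNA here, and splicing was not analysed. Atf6 was at -0.029, and its other probe set 1384957_at at 0.15. Both differences were smaller than the spread within the groups. Of the 13 further probe sets of members, 11 lay on the side of the brightest one of their gene, and the exceptions were this one of Atf6 and 1370665_at of Hyou1.

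**Figure D4:**
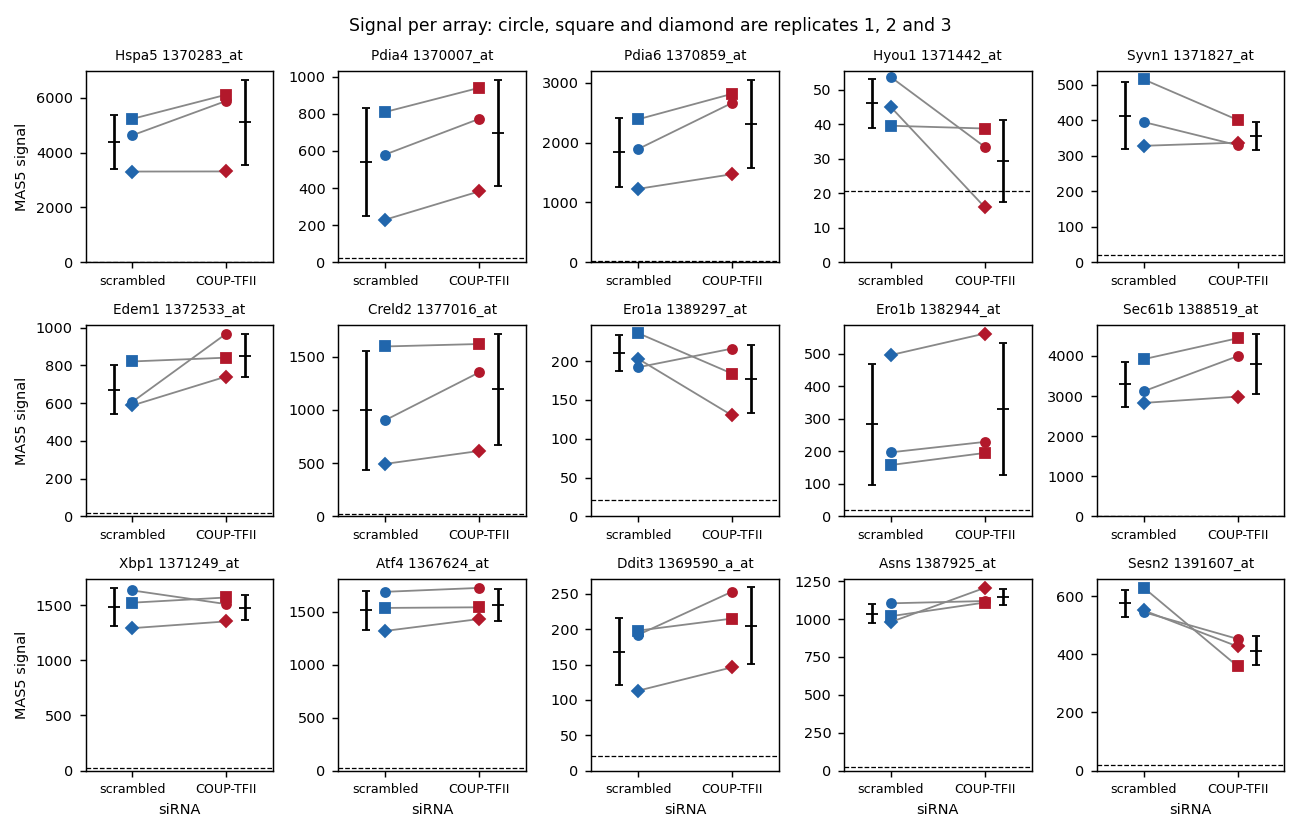
Signal per array (y axis, MAS5 intensity, linear from 0) of 15 members after scrambled siRNA (blue) or COUP-TFII siRNA (red). Grey lines join the arrays of 1 replicate number, black bars beside the points are mean ± SD (n = 3), and dashed lines mark the Bacillus signal of 20.7. Replicate 3 (diamonds) is low in both groups for Pdia4, Pdia6 and Creld2 and high for Ero1b, and the 3 Sesn2 lines slope down.

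The PERK-ATF4 arm had no common direction. By mean 6 of its 10 genes were higher in depleted cells and 4 were lower, with a median log2 fold change of 0.017. The median was -0.096 without depleted array 1, -0.061 without control array 3, 0.092 without control array 2 and 0.15 without depleted array 3. The same-numbered pairs had medians of 0.065, -0.073 and -0.037.

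Atf4, the central factor of the pathway, is regulated mostly through translation, which arrays do not read. It read 1724, 1541 and 1430 in COUP-TFII depleted cells and 1687, 1535 and 1318 in control cells. The log2 fold change of Atf4 was 0.052 (standard error 0.15), from -0.044 without control array 3 to 0.13 without control array 1, -0.02 without depleted array 1, and 0.029 after quantile normalization. Eif2ak3, which encodes PERK, was at 0.026. Neither differed by more than the spread of its group.

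Ddit3, the stress factor CHOP, read 253, 215 and 146 in COUP-TFII depleted cells and 192, 198 and 113 in control cells. The groups overlapped, and all 3 pairs were higher, by 0.40, 0.12 and 0.36 on the log2 scale. The mean was 205 ± 54.3 (SD, n = 3 per group) in depleted and 168 ± 47.2 in control cells, and the log2 fold change was 0.29 with a standard error of 0.28 (0.11 with the block, adjusted p = 0.794). It was 0.52 without depleted array 3 and 0.034 without control array 3.

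Sesn2, a stress-induced inhibitor of mTORC1 signaling, had the lowest unpaired p of all members. It read 453, 359 and 427 in COUP-TFII depleted cells and 545, 629 and 551 in control cells. All arrays of the former lay below all of the latter (exact permutation test, two-sided p = 0.1), and replicate 3 did not stand apart. The mean was 413 ± 48.6 (SD, n = 3) as opposed to 575 ± 46.5 (SD, n = 3). The log2 fold change was -0.48 with a standard error of 0.15 (adjusted p = 1), and 0.11 with the block (adjusted p = 0.678), and it ran from -0.55 to -0.38 with 1 array left out. The other probe set of Sesn2, 1396901_at, gave -0.053 with overlapping groups.

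Asns, for asparagine synthetase, read 1119, 1109 and 1206 against 1104, 1019 and 980.5, so that the lowest depleted array lay above the highest control array (two-sided p = 0.1 by the exact permutation test). Its log2 fold change was 0.15 (standard error 0.12 in the unpaired fit), and 0.071 without both arrays numbered 3. The ATF4 targets Asns and Sesn2 thus had means on opposite sides. Among the remaining genes Cebpb, a transcription factor that pairs with ATF4, was at 0.19 and higher in 3 of 3 pairs. Ppp1r15a, which directs dephosphorylation of eIF2α, was at -0.13 and lower in 3 of 3. Chac1, which degrades glutathione and has CARE in its window, was at -0.14. Trib3, a pseudokinase, was at -0.037, and Atf3, a transcription factor, at 0.0076, with its pairs at 0.94, 0.049 and -0.97.

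The related lists were read in the same way, and 0 of their probe sets passed an adjusted p of 0.05 by limma in the unpaired or the blocked fit. The medians of the 8 lists lay between -0.022 for ER stress apoptosis and 0.071 for the translocon and glycosylation, of whose 30 measured genes 25 were higher in depleted cells. That share of 83.3% stood beside 82.6% of the chaperones, 62.2% of the brighter probe sets and 49.6% of all. It was 76.5% for eIF2 kinases and regulators and from 44.4% to 61.9% for the other lists. Members left out, 189 related genes were measured. By the brightest probe set 4 of them (2.12%) were lower and 0 higher at an unadjusted p up to 0.05 in the unpaired fit, where 1.34% of all probe sets were lower. With the replicate block 6 were lower and 6 higher (3.17% each), against 3.51% and 2.72% of all, so that neither direction prevailed. The higher ones were Fkbp11, Ppib, Selenok, Selenos, Spcs3 and Srp54a, and the lower ones were Creld1 and Ssr3 beside the 4 of the unpaired fit. Mogs, a glucosidase that trims the first glucose from N-glycans, read 371 ± 29.3 (SD, n = 3) as opposed to 496 ± 60.5 (SD, n = 3), a log2 fold change of -0.41. Pdia2, a pancreatic protein disulfide isomerase, was at -0.40, Srpra, the receptor subunit that docks ribosomes at the ER, at -0.37, and Pck2, a mitochondrial enzyme among the ATF4 targets, at -0.44. Each was lower in 3 of 3 pairs, as were 21 of the 189 related genes (11.1%, against 14% of all probe sets). The groups did not overlap for Mogs, Pdia2, Pck2 and Hspa1a, a cytosolic heat shock gene, which is 2.12% of the related genes against 6.69% of all probe sets. Pdia2 thus lay opposite to Pdia4 and Pdia6. The eIF2 kinases and regulators had a median of 0.048, the other sensors and factors 0.019, and the cytosolic heat shock genes 0.0059.

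**Figure D5:**
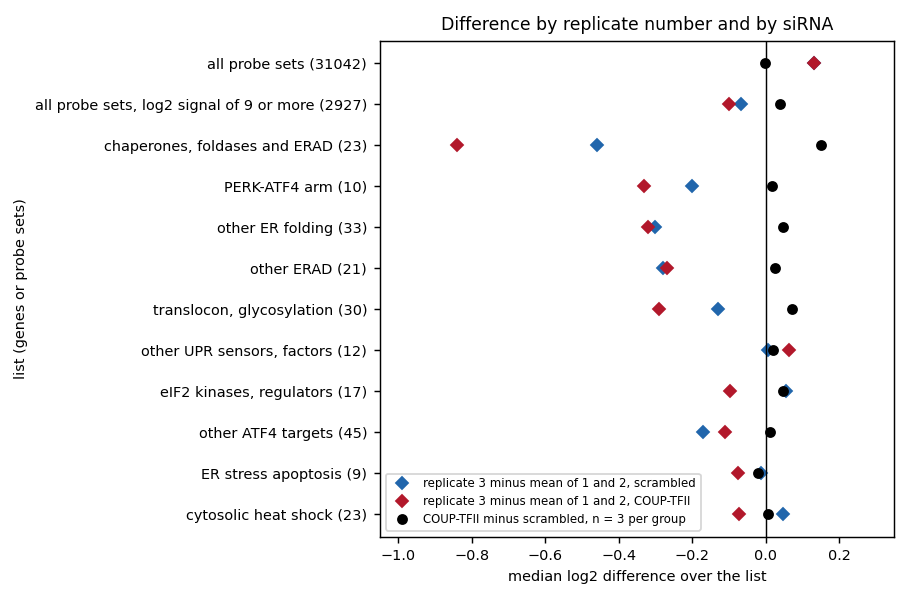
Median log2 difference (x axis) over each list (y axis, number of genes or probe sets in brackets). Diamonds are replicate 3 minus the mean of replicates 1 and 2 in control (blue) and COUP-TFII depleted cells (red), and black circles are COUP-TFII siRNA minus scrambled siRNA (n = 3 per group). For the chaperones the diamonds lie at -0.84 and -0.46 and the circle at 0.15, and for the cytosolic heat shock genes all lie near 0.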

How the data were processed

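RNA of 832/13 INS-1 cells was hybridized to 6 Affymetrix rat 230 2.0 arrays. From the scans the authors computed intensities with MAS5 (version not given in the sources used here), subtracting background and normalizing to reference probes, and the deposited intensity is linear. The deposited table gives no detection calls. Of its 31099 probe sets, 57 controls were left out, and the highest signal of the 27 Bacillus controls, 20.7, served as a scale for background, at or below which 37.5% of probe sets lay in both groups.

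Values were floored at 1 before log2. This floor affects from 1.85% to 5.49% of an array's values, and no further normalization was applied. The comparison of the groups was unpaired and two-sided, by lmFit and eBayes (trend on intensity) of limma 3.58.1 under R 4.3.3, and p values were adjusted by Benjamini-Hochberg across all 31042 probe sets. The fits were tested on simulated data. The number of arrays limits the precision. Deviations from the group means correlated at 0.111, 0.231 and 0.163 between same-numbered arrays and from -0.146 to -0.0104 between others. Deviations within a group cancel out, so the negative values are tied to the positive ones and are no separate evidence of pairing. From the positive values the numbers were taken to pair the arrays, which the labels do not state. The block is printed where it moves a count by over 1.5 times.

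Symbols came from the platform annotation (1 symbol for 20826 probe sets, several for 436, none for 9780), with Ero1l and Ero1lb written as Ero1a and Ero1b after RefSeq synonyms. Promoter windows came from RefSeq (GRCr8). Every member is named by its brightest probe set. Full values are given for those at an unadjusted p up to 0.05 in either fit or with groups that do not overlap, filled to 12 by lowest p, and for Hspa5, Xbp1, Atf4 and Ddit3. Of each related list up to 4 genes with the lowest p were eligible. The members, lists and tests were chosen with earlier results of these data known. As alternatives, quantile normalization, log2(signal + 16), median centring, removal of dim probe sets, limma without the trend, the methods' t-test, the replicate block and the omission of each array were run. Leaving out both arrays of a number and the block with quantile normalization were chosen after seeing the data.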

Additional observations from a re-analysis of the deposited data

How the results depend on the processing

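The number of probe sets called at an adjusted p under 0.05 was 0 in the unpaired fit, 1 by the methods' t-test after Benjamini-Hochberg adjustment, 5 with the replicate block and 4 when the block was combined with quantile normalization. With 1 array left out it was 0 to 0. None of those calls was a member. Members at an unadjusted p up to 0.05 numbered 1 in the unpaired fit, 7 with the replicate block, 7 with the block and quantile normalization, 0 by limma without the trend, and 1 to 3 with 1 array left out. Over all probe sets 0.973% were higher and 1.34% lower in the unpaired fit, against 2.72% and 3.51% with the block. Such shares are not given for the other settings, so their counts cannot be read as a result about the members. The chaperone median log2 fold change of 0.15 ran from -0.072 to 0.42 with 1 array left out. It was 0.11, 0.12 and 0.26 without both arrays numbered 1, 2 and 3 in turn. That of the PERK-ATF4 arm, 0.017, ran from -0.096 to 0.15, and was -0.081 without both arrays numbered 1 and 0.099 without both numbered 2. While all arrays were kept, 19 of 23 chaperone genes were higher under each setting run. They numbered 11 without depleted array 1, 13 without depleted array 2 and 8 without control array 3.

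Of the 15 members given in full, all 105 log2 fold changes kept their direction under settings with all arrays. Many of the 105 were fixed in advance. Removal of dim probe sets, limma without the trend, the methods' t-test and the replicate block do not alter a log2 fold change. After quantile normalization Hspa5 was 0.069, Sec61b 0.11, Atf4 0.029 and Xbp1 -0.027, and with log2(signal + 16) Hyou1 was -0.48. With arrays left out 124 of 135 kept their direction. With 1 array left out Atf4 ran from -0.044 to 0.13, Creld2 from -0.12 to 0.73, Ero1b from -0.23 to 0.73, Hspa5 from -0.00039 to 0.48, Pdia4 from -0.072 to 0.84 and Xbp1 from -0.097 to 0.072, and Xbp1 was 0.055 without both arrays numbered 1. The other 9 kept their direction throughout. With both arrays of a number left out, Xbp1 alone was reversed. Without both arrays numbered 1, 2 and 3 in turn, Pdia4 was 0.48, 0.57 and 0.31, and Ero1b was 0.24, 0.20 and 0.26. Leaving out 1 array keeps the same-numbered array of the other group, so the log2 fold change then also carries the difference between replicate numbers. The part of this in each reversal was not tested. Hyou1 and Atf3 lay near the Bacillus signal on some arrays, which limits the precision of their fold changes.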
